A study of Mus musculus with 4 samples.

Results

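The genes described here encode the proteins through which a cell reports amino acid supply to the kinase mTOR: folliculin (Flcn) and its partners Fnip1 and Fnip2, the arginine sensor Castor1 and its paralog Castor2, the Rag GTPases Rragc and Rragd, the kinase Mtor with its scaffold Rptor, and the transcription factor Tfeb. The 10 genes, listed by symbol, are a small set among 21900 protein-coding genes, and all 10 were found in the RefSeq gene table of GRCm38.p6. For each gene the window examined was the gene body plus 2 kb either side. H3K79me2, a dimethyl mark on a lysine in the globular core of histone H3 that is written by Dot1l and found over the 5' part of transcribed genes, was measured by chromatin immunoprecipitation and sequencing in bone marrow-derived dendritic cells of C57BL/6J mice. The cells received PBS, with no time stated, or 18 mM lysine for 6 h. Each condition has 1 H3K79me2 library and 1 input library, so 4 samples in all, and what follows sets the peaks called in the PBS and lysine H3K79me2 libraries side by side. With 1 library per condition no difference can be set against a spread between replicates, no test was made, and each value describes these libraries alone. In such a bulk preparation, a mark present in fewer cells and a weaker mark in every cell cannot be told apart.

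Amino acids act on mTOR complex 1 (mTORC1) at the surface of the lysosome. Heterodimers of a RagA or RagB with a RagC or RagD protein bind raptor, the product of Rptor, and hold the complex there. Folliculin together with Fnip1 or Fnip2 stimulates GTP hydrolysis by RagC and RagD, which favours recruitment of mTORC1 substrates such as Tfeb. Castor1 binds the GATOR2 complex and releases it when arginine is bound. Tfeb, a driver of lysosome and autophagy genes, stays in the cytoplasm when mTORC1 phosphorylates it.

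The PBS list holds 11926 peaks and the lysine list 9805, over 6.78 and 5.40 Mb. The median −log10 q, the authors' significance of a peak, is 4.03 and 3.85, and the median fold enrichment, the authors' ratio of signal to local background, is 4.52 and 4.48. Both depend on the library, so they rank peaks within a list and do not measure change between lists. Peaks whose −log10 q reached 5 are called strong here, and they make up 37.1% of the PBS and 34.5% of the lysine list. Of 10 dendritic cell markers, 8 carried a PBS peak and 5 a lysine peak, while Ccr7 and Spi1 had none in either. Of 6 macrophage markers 5 carried a PBS peak (0 to 1212 bp per gene, 2918 bp summed) and 1, Csf1r, a lysine peak (0 to 1160 bp per gene, 1160 bp summed), with Adgre1 at 0 in both. Of 5 neutrophil markers only S100a8 had a peak, in PBS. None of the 4 T cell, 4 B cell and 3 erythroid markers, nor of 4 genes of other tissues, had a peak in either list. Among the markers with a peak, the windows of Cd74, Csf1r, Ciita and Zbtb46 overlap other genes, Tcof1 for Cd74 and Hmgxb3 for Csf1r. No peak touched their start windows in either list, so peaks there may belong to a neighbour. The part of these markers in the differences below was not tested.

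H3K79me2 peaks were called on 8 of the 10 genes in PBS and on 7 in lysine. The counts were 7 and 7 with a minimum −log10 q of 2 or a minimum fold of 4. They were also 7 and 7 with the PBS list shortened to the length of the lysine list. In each case Castor2 lost its PBS peaks. All 7 genes with a lysine peak also had a PBS peak. Over all protein-coding genes 36.9% had a peak in the same kind of window in PBS, 34.0% in lysine and 29.5% in both. Longer genes had a peak more often up to a point, and all but 1 of the 10 genes exceed 10 kb. Of genes of 10 to 50 kb, 43.2% carried a PBS peak and 39.9% a lysine peak, compared with 3 and 2 of the 4 members of that length. From 50 to 150 kb the shares were 49.1% and 45.2%, above 150 kb they were 41.4% and 36.7%, and all 4 members between 50 and 150 kb (Fnip1, Fnip2, Mtor and Tfeb) had a peak in both. Castor1 and Rragd had no peak in either list.

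Peaks at the starts of these genes were mostly called in both libraries, as were those at the starts of all genes. The 8 genes carried 18 PBS peaks of 294 to 1619 bp and 13 lysine peaks of 282 to 721 bp. The median widths were 523.5 and 431 bp, beside 456 and 450 bp over all peaks of the lists. A start window, from 250 bases before to 50 after a RefSeq start site, was touched by a peak on 6 genes in each list, and on 5 genes in both (Flcn, Fnip1, Fnip2, Mtor and Rragc). Among 17492 protein-coding genes with a start window on record, this held for 28.1% in PBS, 26.7% in lysine and 22.3% in both. Of the 6 start peaks in each list 5 overlapped a peak of the other list by at least 1 bp. Of the peaks elsewhere, 4 of 12 in PBS and 4 of 7 in lysine did. These counts go by the member's own start windows. The shared pair past the 3' end of Mtor, at the start of Exosc10, is therefore counted as elsewhere. Over all gene windows, peaks touching the start window of any protein-coding gene were taken as start peaks, so the definitions differ. There 80.2% of PBS and 84.8% of lysine peaks at a start were shared, compared with 52.3% and 70.2% of those elsewhere.

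**Figure D1:**
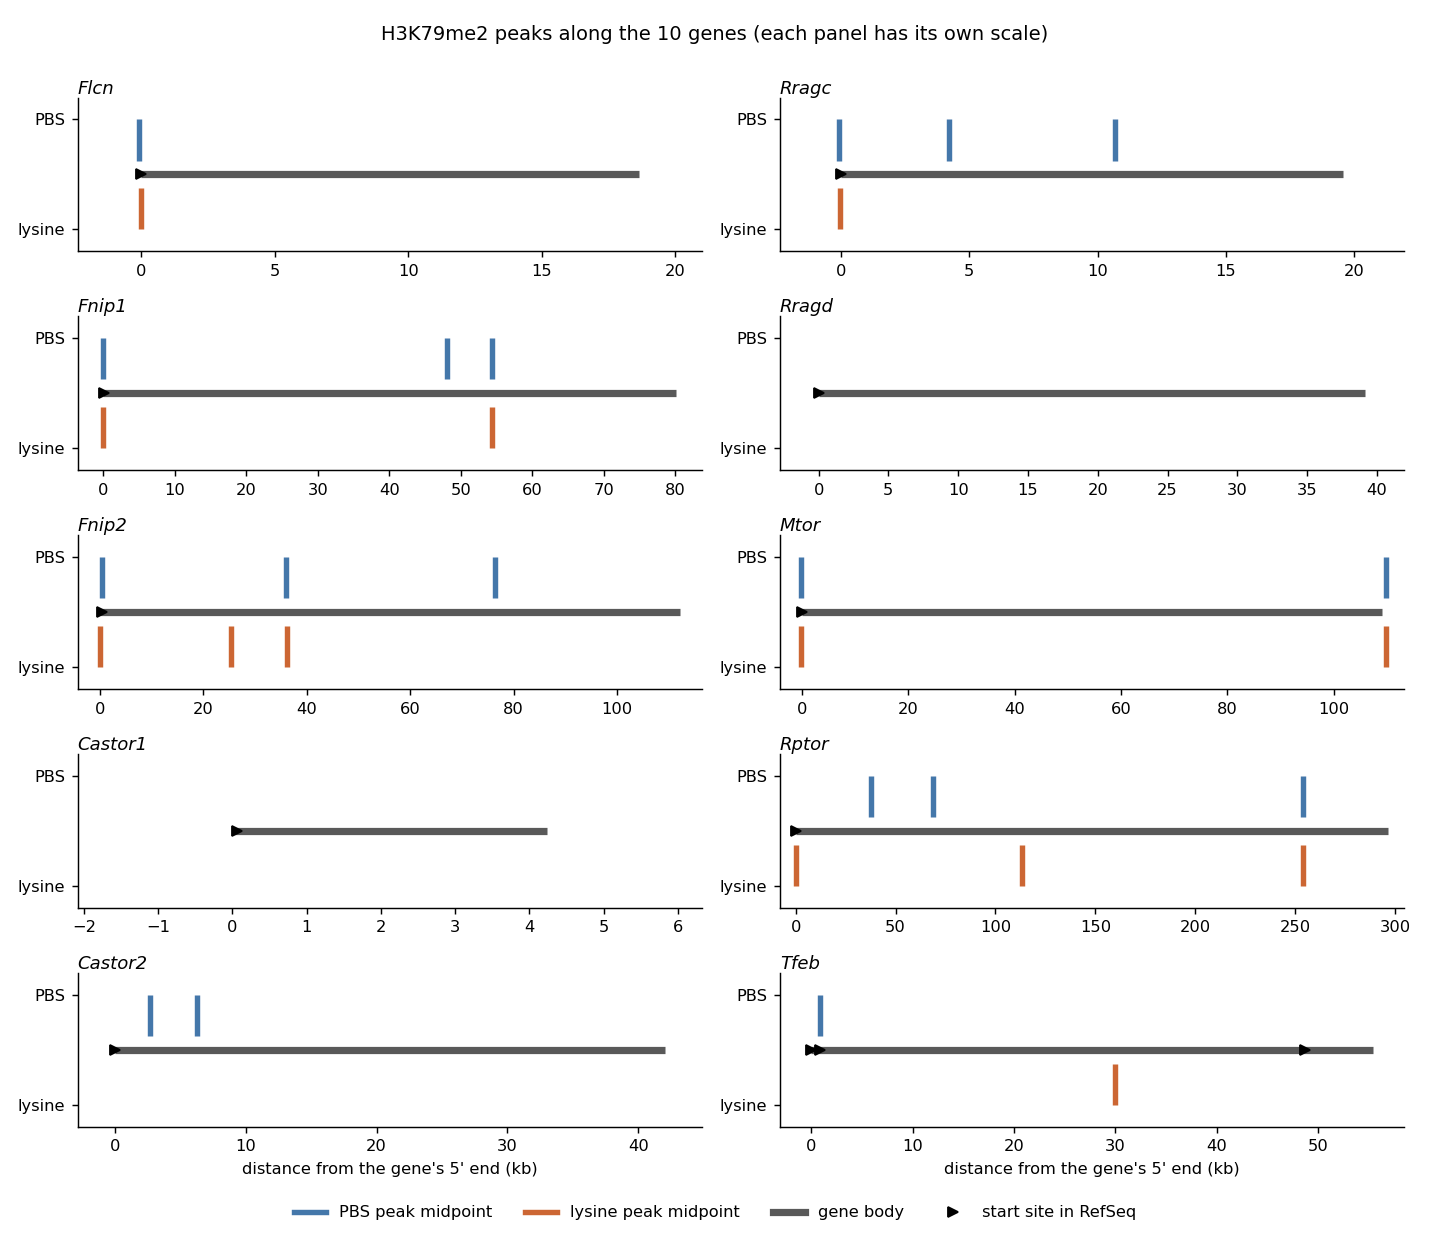
Positions of the called H3K79me2 peaks along the 10 genes, as distance from the gene's 5' end in kb, with PBS peaks above the gene body and lysine peaks below it. Bars stand at peak midpoints and are not drawn to peak width; Castor1 and Rragd have none, and Castor2 has PBS peaks only.

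Rragc, which encodes the RagC GTPase, carried the strongest peaks of the group. The gene lies on the plus strand at chr4:123917433-123936997. Its start peak was at chr4:123917034-123917645 in PBS (612 bp, fold 11.7, −log10 q 25.4) and at chr4:123917117-123917680 in lysine (564 bp, fold 9.69, −log10 q 18.5). These were rank 52 of 11926 and rank 149 of 9805 by −log10 q, and they shared 529 bp. Part of D130007C19Rik, a non-coding gene, lies under the same peaks. Further PBS peaks lay inside the gene at chr4:123921273-123921967 (695 bp) and chr4:123927895-123928325 (431 bp), about 21.4% and 54.6% along it, and no lysine peak overlapped either. Covered length was therefore 1738 bp in PBS and 564 bp under lysine, a difference of -1174 bp that came almost wholly from the inner peaks. Counting strong peaks alone, it was -48 bp. The start window lay entirely under the peak in both lists and is shown because it holds 1 copy of CACGTG, the E-box hexamer that Tfeb and related factors bind. The sequence is from RefSeq on GRCm38.p6 (chr4:123917183-123917482, plus strand, 5' to 3'), with the hexamer, which begins 112 bases before the start site, in capitals.
Rragc: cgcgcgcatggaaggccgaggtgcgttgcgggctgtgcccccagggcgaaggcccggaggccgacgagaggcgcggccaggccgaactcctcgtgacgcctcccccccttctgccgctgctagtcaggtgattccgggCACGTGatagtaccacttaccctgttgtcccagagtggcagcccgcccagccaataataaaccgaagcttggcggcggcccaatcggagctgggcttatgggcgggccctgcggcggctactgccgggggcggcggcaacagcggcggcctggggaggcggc

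Rragd, the RagD GTPase and paralog of RagC, had no peak in its window (gene body chr4:32982998-33022180, 39.2 kb). The nearest called peak lay 53.9 kb from the gene body in PBS, on Gabrr2, and 225 kb away in lysine, on Pnrc1. A gene without a called peak may still carry the mark below the calling threshold. In both libraries the covered length was thus 0 bp at Rragd, beside 1738 and 564 bp at Rragc.

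Flcn, the folliculin gene (chr11:59791408-59810039, minus strand), had a single peak in each library, at its start. The PBS peak spanned chr11:59809763-59810477 (715 bp, fold 4.33, −log10 q 3.46) and the lysine peak chr11:59809743-59810336 (594 bp, fold 4.16, −log10 q 3.18). They shared 574 bp, which is 80.3% of the PBS and 96.6% of the lysine peak. Both were of middling rank, above 40.4% of the PBS list and 38.6% of the lysine list. The start of the non-coding gene Gm16062, on the opposite strand, lies under both. The covered difference of -121 bp turned to 20 bp when the flanks were left out, since the PBS peak reaches farther upstream.

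Fnip1, a folliculin partner (chr11:54438107-54518241, plus strand), carried a start peak and a deep inner peak in both libraries. At the start the PBS peak was at chr11:54437855-54438314 (460 bp, fold 5.46, −log10 q 6.40) and the lysine peak at chr11:54437654-54438374 (721 bp, fold 7.43, −log10 q 11.5). The lysine peak contained the whole PBS peak. It was stronger than 93.8% of its list, and the PBS peak than 75.4% of its own. Some 54 kb into the gene lay peaks at chr11:54492115-54492782 in PBS (668 bp) and chr11:54492123-54492713 in lysine (591 bp), 67.8% along the gene body. Another PBS peak at chr11:54486064-54486383 (320 bp) had no lysine partner. In total 1448 bp were covered in PBS and 1312 bp in lysine. The difference of -136 bp turned to 852 bp for strong peaks alone and to 9 bp with 5 kb flanks. The start window of Fnip1 is the only other one among the members with the hexamer, 75 bases before the start site (chr11:54437929-54438228, plus strand).
Fnip1: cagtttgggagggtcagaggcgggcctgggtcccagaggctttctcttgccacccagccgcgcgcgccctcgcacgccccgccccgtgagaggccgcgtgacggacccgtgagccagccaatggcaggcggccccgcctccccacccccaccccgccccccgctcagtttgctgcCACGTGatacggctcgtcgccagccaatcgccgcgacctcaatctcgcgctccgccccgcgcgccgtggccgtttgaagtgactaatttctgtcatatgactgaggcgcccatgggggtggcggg

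Fnip2, the second folliculin partner (chr3:79455971-79568151, minus strand), had the most covered length of the group in PBS and differed in the shape of its start peak. The PBS region at the start was 1619 bp long (chr3:79566821-79568439, fold 4.28, −log10 q 3.35) and the lysine region 431 bp (chr3:79567898-79568328, fold 5.36, −log10 q 5.64). Inside the PBS region the authors' gapped list marks 1 narrow block of 529 bp at chr3:79567911-79568439. That block shared 418 bp with the lysine peak, which is 97.0% of the latter, so the remaining 1090 bp of the PBS region, toward the gene body, lay outside the block. The start of 4930589L23Rik, a non-coding gene on the opposite strand, lies under both peaks, while the start window of Fnip2 itself was wholly under the broad region in PBS and for 32 bp in lysine. By narrow blocks it was covered for 19 and 32 bp. Deeper peaks were called at chr3:79531900-79532391 in PBS (492 bp) and chr3:79531815-79532187 in lysine (373 bp), which shared 288 bp. Without a partner were a PBS peak at chr3:79491627-79492013 (387 bp) and a lysine peak at chr3:79542544-79542825 (282 bp). Covered length reached 2498 bp with PBS, exceeded by 172 protein-coding genes, and 1086 bp with lysine, exceeded by 1087. The difference of -1412 bp was -322 bp by narrow blocks and turned to 431 bp for strong peaks alone. There the PBS start region (−log10 q 3.35) dropped out whole, with its block, and the lysine region (5.64) remained. The −log10 q is given for the region and not for the block, so this turn does not compare the strength of the blocks.

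**Figure D2:**
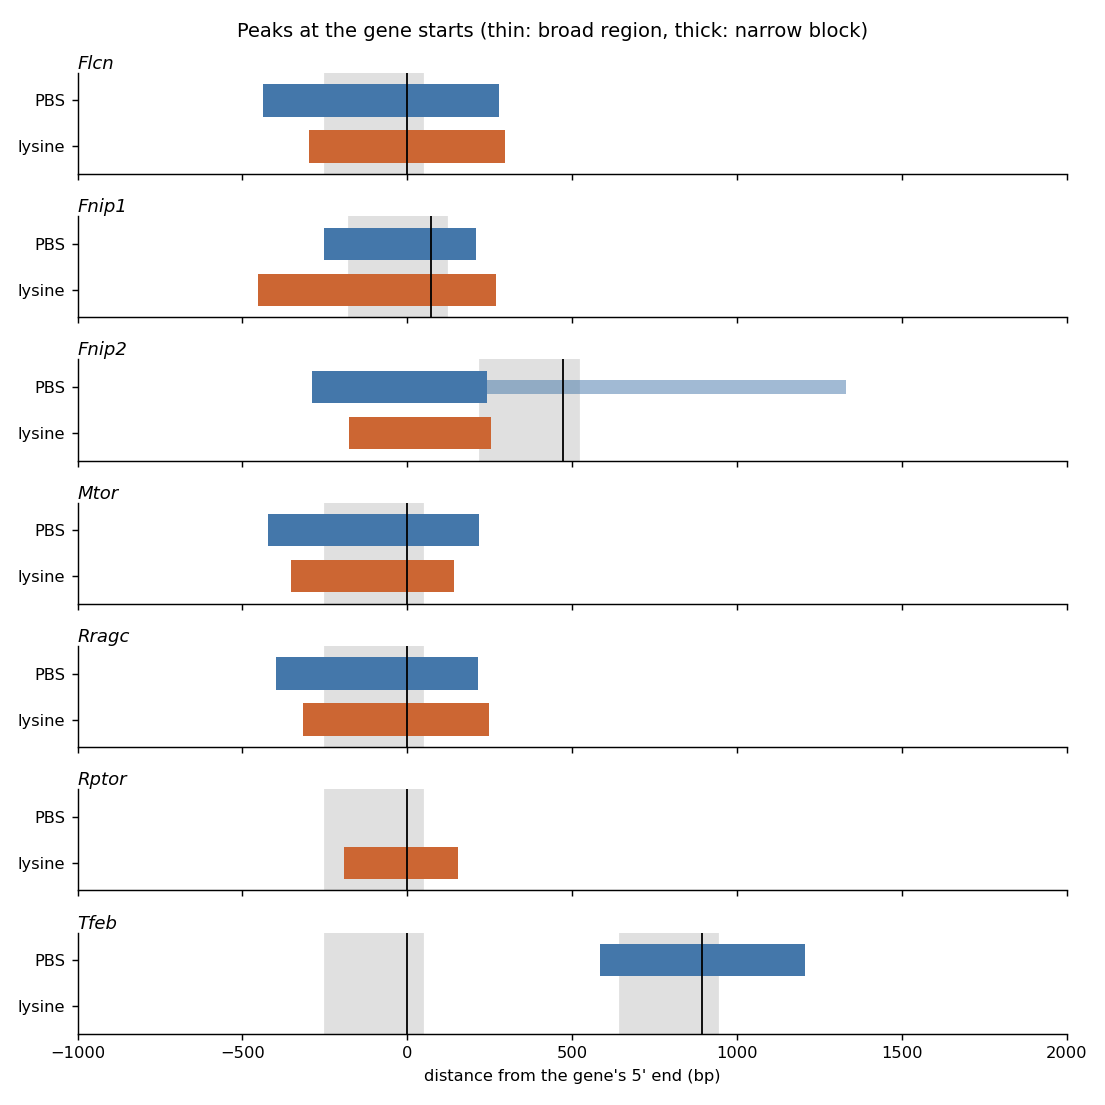
Peaks at the starts of 7 genes, as distance in bp from the gene's 5' end, with PBS above lysine in each panel, broad regions as thin bars, narrow blocks as thick bars, start windows shaded and start sites as black lines. At Fnip2 the thick PBS block and the lysine peak nearly coincide, at Rptor only a lysine peak is present, and at Tfeb only a PBS peak, over the second start.

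Castor1, the arginine sensor, had no peak in its window (gene body chr11:4218166-4222409, plus strand, 4.24 kb). The nearest peaks lay 10.2 kb from the gene body in both lists, on no gene of the table. Its paralog Castor2 (chr5:134099748-134141782, plus strand) had peaks in PBS only. They were at chr5:134101838-134102971 (1134 bp, fold 3.33, −log10 q 1.61) and chr5:134105898-134106211 (314 bp, fold 3.46, −log10 q 1.92), inside the gene and clear of the start window. Both ranked low, above 2.40% and 8.01% of the PBS list, and the longer one holds no narrow block. The difference of -1448 bp was the largest of the group, yet it was 0 bp once peaks with a −log10 q below 2 or a fold below 4 were dropped, or once the PBS list was shortened to the length of the lysine list, since Castor2 then had no peak left. By narrow blocks it was -314 bp.

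Mtor, the kinase gene (chr4:148448582-148557685, plus strand), was marked at its start in both libraries. The PBS peak at chr4:148448160-148448798 (639 bp, fold 7.63, −log10 q 13.4) contained the lysine peak at chr4:148448230-148448722 (493 bp, fold 8.69, −log10 q 15.1). They stood above 95.4% and 97.2% of their lists, and their midpoints were 3 bp apart. No peak lay inside the gene body of 109 kb beyond the start. The window also held peaks past the 3' end, at chr4:148558242-148558796 in PBS (555 bp) and chr4:148558291-148558717 in lysine (427 bp). These cover the start of the neighbouring gene Exosc10, a subunit of the RNA exosome, and count for Mtor only through the flank. Covered length was 1194 and 920 bp. The difference of -274 bp turned to 281 bp once peaks with a fold below 4 were dropped, where the PBS peak of Exosc10 (fold 3.85) dropped out and the lysine peak (fold 4.65) did not.

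Rptor, which encodes the scaffold raptor and is the longest of the 10 genes (chr11:119602905-119899591, plus strand, 297 kb), was the only member with more covered length in lysine. It had 3 peaks in each library, and 1 pair of them overlapped. The lysine list alone had a peak at the start, chr11:119602713-119603059 (347 bp, fold 4.63, −log10 q 3.94), which stood above 51.4% of its list. In the PBS list the start window was free of peaks. The overlapping pair lay 85.6% along the gene, at chr11:119856709-119857002 in PBS (294 bp, −log10 q 3.31) and chr11:119856554-119856956 in lysine (403 bp, −log10 q 5.67). PBS peaks at chr11:119640450-119640754 (305 bp) and chr11:119671240-119671666 (427 bp), and a lysine peak at chr11:119715892-119716192 (301 bp, −log10 q 1.79), had no partner. Peaks covered 1026 bp of the window for PBS and 1051 bp for lysine. The difference of 25 bp turned to -276 bp without peaks of −log10 q below 2 and to -167 bp without flanks, and it was 456 bp without peaks of a fold below 4. The start window is shown because the call there was made in lysine alone (chr11:119602655-119602954, plus strand). It holds no copy of the hexamer.
Rptor: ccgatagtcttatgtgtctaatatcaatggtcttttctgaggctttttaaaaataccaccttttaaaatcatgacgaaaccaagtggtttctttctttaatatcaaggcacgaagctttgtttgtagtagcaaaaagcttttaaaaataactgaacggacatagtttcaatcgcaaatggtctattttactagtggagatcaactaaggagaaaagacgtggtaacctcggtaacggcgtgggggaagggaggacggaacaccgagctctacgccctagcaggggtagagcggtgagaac

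Tfeb (chr17:47737037-47792416, plus strand) had 1 peak in each library, at different places. The PBS peak at chr17:47737623-47738243 (621 bp, fold 4.73, −log10 q 4.23) lay over the second of the 3 start sites in RefSeq, at 47737931, and did not reach the window of the first. The lysine peak at chr17:47766798-47767256 (459 bp, fold 4.20, −log10 q 3.40) lay 29761 bp into the gene, 54.2% along it, touching none of the start windows. Covered length was 621 and 459 bp with 0 bp in common, so the difference of -162 bp is one between peaks at separate places. Tfeb had no strong peak in either list. The window of the second start, covered in PBS only, is printed from chr17:47737681-47737980 (plus strand) and holds no copy of the hexamer.
Tfeb: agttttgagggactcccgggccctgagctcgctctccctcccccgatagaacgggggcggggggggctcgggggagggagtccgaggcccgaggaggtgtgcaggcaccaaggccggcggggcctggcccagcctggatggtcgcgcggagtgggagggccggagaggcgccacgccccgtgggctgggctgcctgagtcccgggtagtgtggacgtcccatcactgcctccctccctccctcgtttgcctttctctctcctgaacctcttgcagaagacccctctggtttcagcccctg

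**Figure D3:**
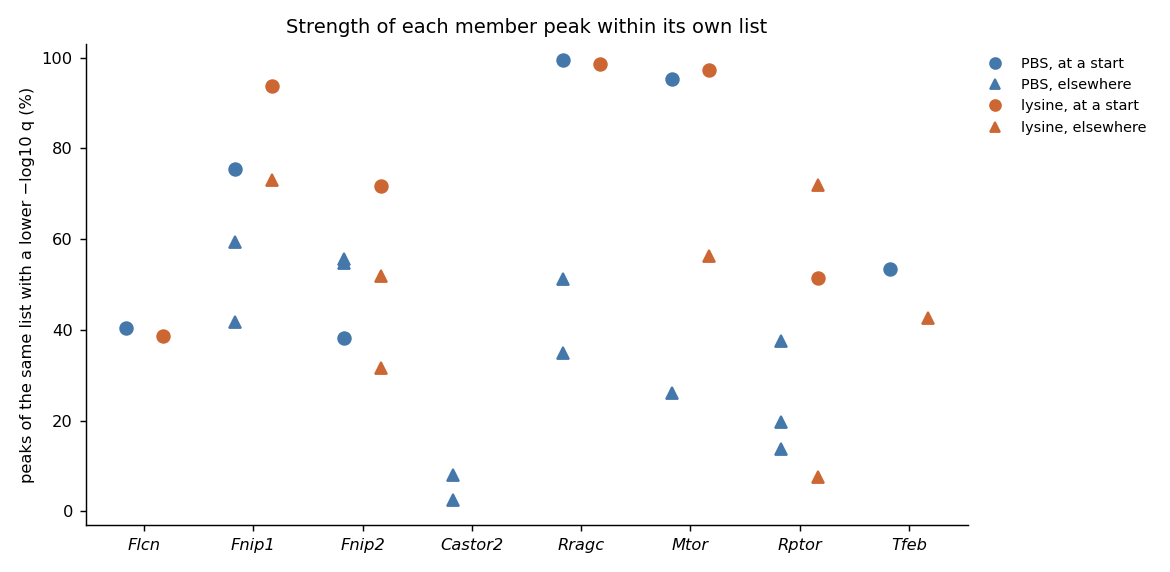
Strength of each member peak within its own list, as the percentage of peaks of that list with a lower −log10 q, with circles for peaks at a start window and triangles for peaks elsewhere. Start peaks of Rragc and Mtor stand above 95% of their lists, and both Castor2 peaks below 10%.

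Over the 10 genes together, peaks covered 10688 bp with PBS and 5986 bp with lysine, of which 4041 bp were common to both. For strong peaks alone the totals were 1711 and 3203 bp, and without flanks they were 8334 and 3772 bp. The common length is 37.8% of the PBS and 67.5% of the lysine length. The lysine to PBS ratio was 0.560, beside 0.702 for the other pathway genes listed further on, 0.548 for the dendritic cell markers and 0.796 over all peaks of the lists. Among the dendritic cell markers 7 were shorter in lysine, H2-Ab1 by the most (2602 and 0 bp). The remaining gene with a peak, Cd74, was longer (900 and 2441 bp), in a window that overlaps Tcof1. With lists of equal length the ratio was 0.670 for the members and 0.947 over all peaks. For the other pathway genes that setting took the summed difference from -9995 to -3529 bp. Covered length was shorter in lysine on 7 of the 8 genes with a peak and longer on 1, Rptor. Among the 9070 protein-coding genes with a peak in either list it was shorter in lysine on 59.3% and longer on 40.6%. The median difference of the 8 genes was -218 bp, against -64 bp over those 9070 genes. Castor2, Fnip2 and Rragc had the largest differences, with -1448, -1412 and -1174 bp, and the other 5 ranged from -274 to 25 bp. The order of the covered lengths was Fnip2, Rragc, then Fnip1 and Castor2 alike, Mtor, Rptor, Flcn and Tfeb in PBS. In lysine it was Fnip1, Fnip2, Rptor, Mtor, Flcn, Rragc and Tfeb. No replicate shows which neighbours in these orders differ.

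Where both libraries had a peak on a member, the pair could be compared in width. Of 9 overlapping pairs 7 were narrower in lysine and 2 wider, those at the start of Fnip1 and deep in Rptor, and 4 lysine peaks lay wholly inside their PBS partner. Over all 7401 overlapping pairs of the lists, 57.2% were narrower in lysine and 42.5% wider, and 28.8% of lysine peaks lay inside their partner. The midpoints were 3 to 483 bp apart, the widest gap being that of the Fnip2 start. The gapped lists hold 17 narrow blocks over 8464 bp on these genes in PBS and 13 blocks over 5986 bp in lysine. In lysine each region was a single block of its full length, whereas in PBS the Castor2 region of 1134 bp had none and the Fnip2 start region was filled only in part.

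The direction of the summed difference depended on the strength asked of a peak. Among strong peaks alone, 3 member peaks remained in PBS, at the starts of Fnip1, Mtor and Rragc. In lysine 6 remained, on Fnip1, Fnip2, Mtor, Rptor and Rragc, and 4 of them lay at a start. The difference over the 10 genes then turned from -4702 to 1492 bp. Over the other pathway genes listed further on it went from -9995 to -4766 bp and did not turn. Of all peaks, 37.1% in PBS and 34.5% in lysine are strong. The share of all protein-coding genes with a strong peak, and their summed difference at that cut, were not worked out. Since −log10 q depends on the library, the same cut need not be equally strict in both lists. On the members the longer PBS coverage lay in peaks below that strength. The −log10 q belongs to a whole region, so the Fnip2 start region of PBS dropped out together with its narrow block.

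**Figure D4:**
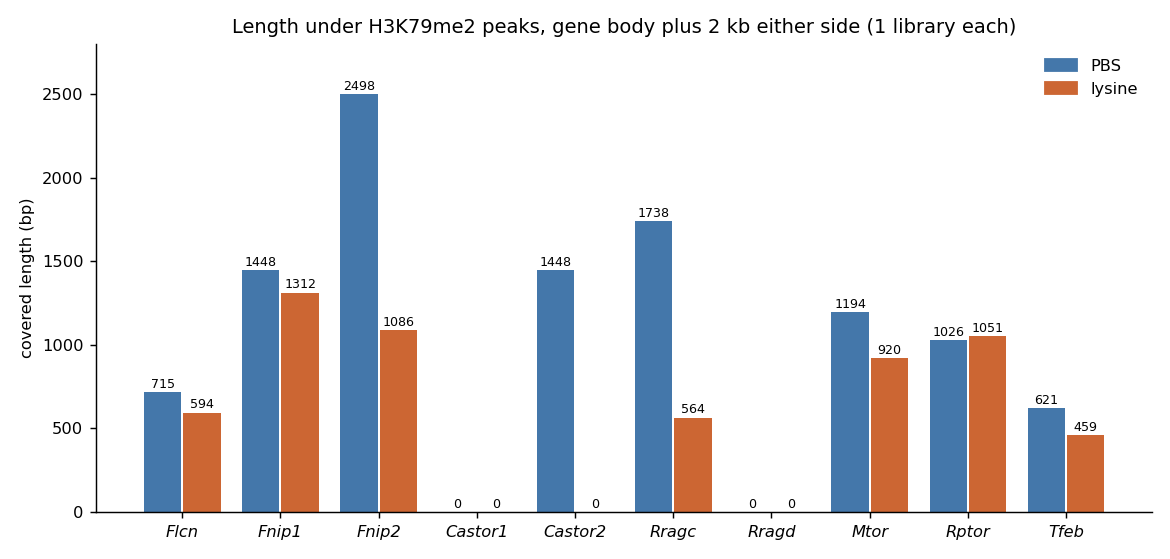
Covered length in bp of the 10 genes with 2 kb either side, with 1 bar for the PBS library and 1 for the lysine library and no error bars since each is a single library. Lysine bars are lower at 7 genes and higher only at Rptor, by 25 bp.

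The start windows of the members differed in base composition, with and without a peak. G and C made up 78.0% of the window of Fnip2, 70.7% of those of Fnip1 and Rragc, 70.0% of that of the second Tfeb start, 56.7% of those of Flcn and Mtor and 41.7% of that of Rptor. Without a peak in either list were the windows of Castor2 (66.3%), Castor1 (65.7%), Rragd (59.7%) and the first and last Tfeb starts (56.0% and 59.0%). Over 21263 start windows of protein-coding genes the median was 56.3%, with 62.3% for those touched by a PBS peak, 62.7% for those touched by a lysine peak and 53.0% for those touched by neither. The Rptor window, called in lysine alone, is poorer in G and C than all but 10.9% of them. Counts of CG ranged from 44 in the Fnip2 window to 6 in those of Rragd and the last Tfeb start. The median was 13 over all start windows, 24 for those touched by a PBS or by a lysine peak and 7 for those touched by neither. CACGTG, which reads the same on both strands, was found in 7.84% of all start windows, in 12.1% of those touched by a PBS peak, in 12.6% of those touched by a lysine peak and in 5.94% of those touched by neither. The hexamer itself holds a CG, and the part of the CG counts in these shares was not tested. A match to these letters is a description of the sequence and not a site of binding.

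Other genes of the pathway were taken from a list of 62, of which 60 matched the gene table, 1 of them (Lars) through a synonym. Kics2 and Samtor did not match. The PBS list had a peak on 43 of the 60 and the lysine list on 39, 33 of them in both (71.7%, 65.0% and 55.0%, beside 36.9%, 34.0% and 29.5% of all protein-coding genes). With lists of equal length both counts were 39, and the summed difference went from -9995 to -3529 bp. For strong peaks alone the counts were 24 and 18, without a share of all genes at that cut to set beside them. Covered length was shorter in lysine on 31 and longer on 18, with a median difference of -86 bp over the 49 genes with a peak. The share that was shorter, 63.3%, and this median lie near those of all genes with a peak, 59.3% and -64 bp. The longest covered lengths were those of Prr5l, a partner of mTOR complex 2, in PBS (2984 bp, with 1503 bp in lysine) and of Akt1s1, the mTORC1 inhibitor PRAS40, in lysine (1863 bp, with 1544 bp in PBS). The window of Akt1s1 overlaps that of Tbc1d17.

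Among the Rag and Ragulator genes, which encode the lysosomal anchor of mTORC1, 5 of 8 had a peak in each list. Rraga, a dimer partner of RagC, was covered for 0 bp with PBS and 289 bp with lysine, and the lysosomal arginine transporter Slc38a9 had 759 and 0 bp. Of 6 genes of GATOR1, the complex that inactivates RagA and RagB, and its anchor KICSTOR, 5 carried a PBS peak and 2 a lysine peak, and all 5 had less covered length in lysine. Depdc5 (281 bp) and Nprl3 (507 bp) were among those with PBS peaks alone, and Nprl2 had 476 and 422 bp. In the opposing GATOR2 complex, to which Castor1 binds, 2 of 5 carried a PBS peak and 3 a lysine peak, with 905 and 446 bp at Wdr59. The leucine sensors Sesn1 and Sesn2 had 925 and 528 bp and 511 and 712 bp, and the related Sesn3 had 1355 and 1055 bp.

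The relatives of Tfeb all had a peak in both libraries. Tfe3 was covered for 309 bp with PBS and 1521 bp with lysine, the largest gain of the pathway list, while Mitf had 1888 and 436 bp and Tfec 2038 and 337 bp. Start windows of all 3 were touched in PBS, and that of Tfe3 alone in lysine. Of 10 genes listed as Tfeb targets, mostly of lysosome and autophagy, 8 carried a PBS peak and 7 a lysine peak. Sqstm1, the autophagy receptor p62, had 2656 bp with PBS and 6 bp with lysine, the largest loss of the list. It counts among the 7 through those 6 bp alone. Its window overlaps that of Mrnip. Gpnmb, a lysosomal glycoprotein, had 0 and 771 bp, and the protease gene Ctsd 598 and 617 bp. Of the mTORC1 substrate genes 6 of 9 carried a PBS peak and 5 a lysine peak, with 628 and 883 bp at the S6 kinase gene Rps6kb1 and 0 and 307 bp at the autophagy kinase gene Ulk1.

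**Figure D5:**
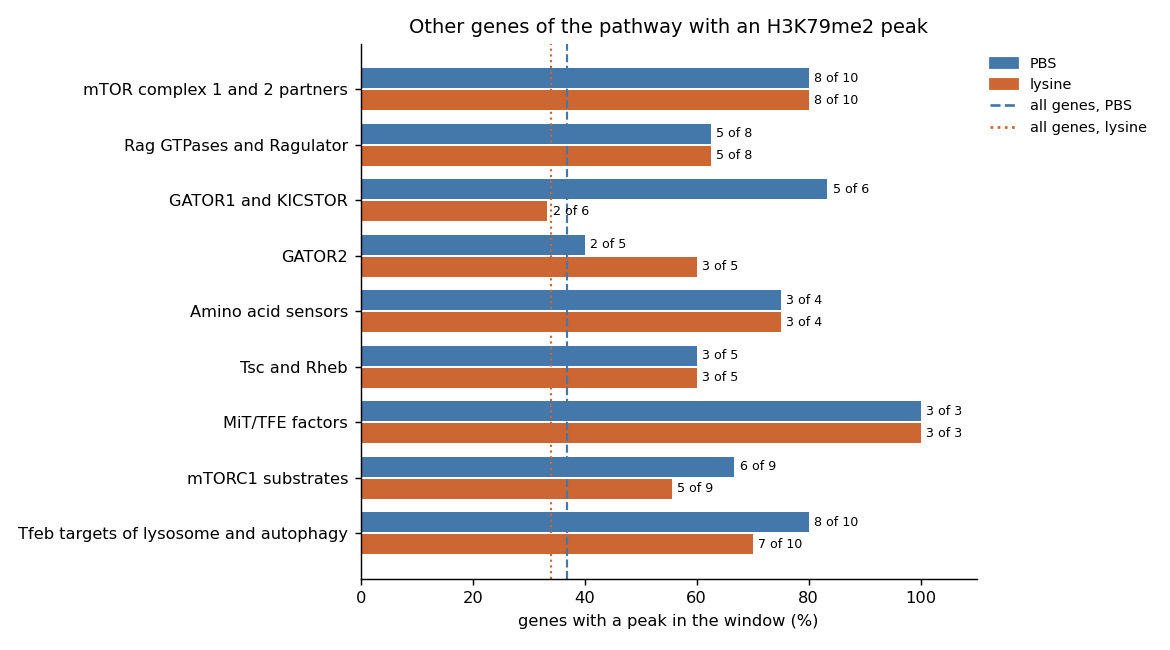
Share of the other pathway genes with an H3K79me2 peak in their window, in percent, by group and library, with the number of genes at each bar and the share over all protein-coding genes as vertical lines (36.9% in PBS, 34.0% in lysine). GATOR1 and KICSTOR is the group with the widest gap, 5 of 6 genes in PBS and 2 of 6 in lysine.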

How the data were processed

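Per the labels' protocols, DNA of formaldehyde-fixed cells was sequenced in paired-end mode before and after immunoprecipitation. The input libraries were not used here. Tools named in the submitters' processing notes include Bowtie2 2.3.4.1 and MACS2 2.1.2, with GRCm38 as the build. What each tool did, the calling thresholds and the control are not given in the sources used. The authors deposited peaks per sample, without headers, read here by the MACS2 layout: a fold ratio over local background, a −log10 p, a −log10 q and a score of 10 times the −log10 q. Fold and −log10 q were used, within a list only. The deposited gapped lists add narrow blocks to the same regions, and blocks of 1 bp, which mark an end, were left out. No read counts are given, so the depth is unknown.

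Groups came from the sample titles. Covered length is the bp of a gene window under peaks, and overlapping genes share it. Gene ends, start sites, strands and start sequences came from RefSeq tables of GRCm38.p6, which were used without exons. A member's peak was placed at a start if it touched a start window of that gene, otherwise by its midpoint. Peaks overlapping by 1 bp counted as shared. Coordinates are 1-based. Python 3.11.15, numpy 2.4.6, pandas 2.3.3 and matplotlib 3.10.9 were used. Covered lengths of 21900 windows were checked against bedtools 2.31.1, with 0 differences, and the code was tested on simulated data.

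All 10 members are named, as are pathway genes with the most covered length or the largest differences either way. Other pathway genes given with values were chosen after their values were seen, and some are not reported here. The members and lists were chosen with earlier results of these data known. Alternatives were a minimum −log10 q of 2 or 5, a minimum fold of 4, the PBS list shortened to the strongest peaks in the number of the lysine list, narrow blocks, no flank or 5 kb, and 50% overlap.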

Additional observations from a re-analysis of the deposited data

How the results depend on the processing

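With strong peaks alone (−log10 q reaching 5), the number of genes with a PBS peak went from 8 to 3 and with a lysine peak from 7 to 5. Shared member peaks went from 9 to 3 in the PBS list and from 9 to 3 in the lysine list. The summed difference of -4702 bp turned to 1492 bp for strong peaks, while that of the other pathway genes went from -9995 to -4766 bp. The values of all protein-coding genes at this cut were not worked out, so whether the members are unusual there was not tested. For the members the summed difference was -2268 bp with a minimum fold of 4, -2949 bp for lists of equal length and -2478 bp by narrow blocks. For the other pathway genes these settings gave -6513, -3529 and -5129 bp. Single genes turned as follows: Fnip1 to 852 bp and Fnip2 to 431 bp for strong peaks, Rptor to -276 bp with a minimum −log10 q of 2, Mtor to 281 bp with a minimum fold of 4, Flcn to 20 bp and Rptor to -167 bp without flanks, and Fnip1 to 9 bp with 5 kb flanks. The cause was not tested beyond the peaks that each setting drops or adds. Rragc kept its direction in all 7 settings that redefine peaks or windows, though it shrank from -1174 to -48 bp for strong peaks. Castor2 and Tfeb did not turn either, but their differences were 0 bp in 4 and 1 of these settings. No paired analysis was possible because each condition has 1 H3K79me2 library. The depth is unknown, so a missing call is not an absence of the mark.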

Other observations

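Beyond 2 kb and within 5 kb of the members lay 2 further peaks in each list. Near Fnip1, 4.15 kb past its 3' end in PBS and 4.06 kb in lysine, a peak on Rapgef6 was called at chr11:54522389-54523034 in PBS (646 bp) and chr11:54522301-54523091 in lysine (791 bp). Near Fnip2, 4.15 and 4.31 kb upstream of its 5' end, a peak on the non-coding gene 4930589L23Rik was called at chr3:79572300-79572801 in PBS (502 bp) and chr3:79572463-79572825 in lysine (363 bp).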
